A study of Drosophila melanogaster with 2 samples.

Results

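The regions described here are the Usf-GFP peaks of Drosophila melanogaster embryos that lay in pericentric heterochromatin or on chromosome 4. They were chosen by position alone. A peak of the pooled list on the dm6 genome was a member when its summit lay on chromosome 4, on 2L above 22.2 Mb, on 3L above 23 Mb, on 3R below 4.2 Mb or on X above 22.6 Mb. This gave 640 of the 21315 pooled peaks (3.00%), of which 166 lay on chromosome 4 and 474 in the 4 pericentric windows. The pericentric peaks divided into 80 on 2L, 207 on 3L, 149 on 3R and 38 on X. The other 16911 peaks of 2L, 3L, 3R and X served as the comparison and are called the rest. The 3764 peaks of 2R entered neither side. The pooled list holds background as well as peaks, so an entry alone does not show a bound site. The word peak is used here for every entry. Of the members, 14 were also in the authors' thresholded list, described below.

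Chromatin immunoprecipitation with sequencing was performed on whole embryos of mixed sex collected from 0 to 16 hours, from 1 transgenic line, Usf-GFP, in which Usf carries GFP at its C terminus. The antibody recognised GFP, so it was directed at the fusion protein and not at untagged Usf. The promoter that drives the fusion is not given in the sources used here. The only group held 2 biological replicates, numbered 3 and 4, and there was no second genotype or treatment. Whole embryos mix all cell types, so a weak peak in every cell and a strong peak in few cells cannot be told apart.

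Usf is a basic helix-loop-helix leucine zipper transcription factor, and its vertebrate relatives bind the E-box CACGTG. Pericentric heterochromatin flanks the centromeres, is rich in repeats and transposable elements, and carries methylated histone H3 lysine 9 and the protein HP1. It holds few genes, many of which have very long introns filled with repeats. Chromosome 4 is a small autosome on which heterochromatic marks and active genes are interspersed, and a protein specific to this chromosome coats it.

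The sequences below carry the strongest signals of each kind and were read from the Release 6 assembly by RefSeq, plus strand, 5′ to 3′. Capitals mark the 21 bases centred on the summit, the position of highest signal. The first pair is the strongest on chromosome 4, upstream of PlexA (chr4:1027162-1027362) and of RpS3A (chr4:67225-67409). The second pair is the strongest in a pericentric window, upstream of RpL15 (chr3L:27267047-27267247) and of l(3)80Fg (chr3L:26014141-26014341). The third pair is intergenic and over 1 kb from any transcription start site (TSS), at chr4:424729-424895 and chr4:497838-497982.
PlexA: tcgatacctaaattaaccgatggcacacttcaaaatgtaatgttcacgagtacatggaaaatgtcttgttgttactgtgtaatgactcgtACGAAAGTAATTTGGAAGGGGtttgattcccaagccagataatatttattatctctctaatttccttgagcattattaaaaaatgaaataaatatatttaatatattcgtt
RpS3A: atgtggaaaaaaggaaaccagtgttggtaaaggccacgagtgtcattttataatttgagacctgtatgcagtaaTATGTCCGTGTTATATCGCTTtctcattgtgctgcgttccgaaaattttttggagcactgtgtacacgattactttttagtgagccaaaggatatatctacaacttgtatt
RpL15: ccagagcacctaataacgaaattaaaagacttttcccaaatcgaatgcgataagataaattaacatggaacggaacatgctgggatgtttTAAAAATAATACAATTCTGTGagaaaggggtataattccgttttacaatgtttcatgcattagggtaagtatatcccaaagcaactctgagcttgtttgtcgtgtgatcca
l(3)80Fg: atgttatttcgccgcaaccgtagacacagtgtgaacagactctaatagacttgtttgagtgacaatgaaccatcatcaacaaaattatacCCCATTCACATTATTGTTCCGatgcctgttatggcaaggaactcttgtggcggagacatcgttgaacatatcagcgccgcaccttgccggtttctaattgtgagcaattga
intergenic, first: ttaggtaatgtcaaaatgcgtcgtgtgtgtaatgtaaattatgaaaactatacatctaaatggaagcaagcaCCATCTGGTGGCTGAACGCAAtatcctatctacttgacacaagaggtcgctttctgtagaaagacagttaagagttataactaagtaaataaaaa
intergenic, second: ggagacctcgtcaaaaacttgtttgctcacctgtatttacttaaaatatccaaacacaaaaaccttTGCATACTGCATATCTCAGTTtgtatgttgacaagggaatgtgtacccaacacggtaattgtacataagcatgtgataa

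None of these 6 sequences held CACGTG on either strand, and A and T made up between 56.7% and 69.7% of their bases. The lowest share was that of l(3)80Fg and the highest that of PlexA. The strongest member that did hold CACGTG lay upstream of lgs, at chr4:444125-444325 with a pooled signal of 68.2. It is shown because capitals here mark its E-box, which began 90 bp from the summit.
lgs: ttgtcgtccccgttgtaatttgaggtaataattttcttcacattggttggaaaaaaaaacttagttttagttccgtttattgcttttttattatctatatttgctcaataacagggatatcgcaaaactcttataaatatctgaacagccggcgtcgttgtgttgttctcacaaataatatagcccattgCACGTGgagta

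Peaks were sparser per Mb in these regions than in the rest of the same arms, by far in the pericentric windows and by less on chromosome 4. The pooled list held 50.2 peaks per Mb of known bases in all the regions together, 125 on chromosome 4, 41.5 in the pericentric windows and 177 in the rest. The density was thus 0.284 times that of the rest (95% interval 0.262 to 0.307), 0.705 times on chromosome 4 (0.605 to 0.821) and 0.234 times in the pericentric windows (0.214 to 0.257). These intervals cover counting error over peaks only. Among the windows the pooled density was 60.9 per Mb on 2L, 41.4 on 3L, 40.4 on X and 35.7 on 3R. Set against the rest of its own arm, each window had a ratio of 0.325 on 2L, 0.289 on X, 0.213 on 3L and 0.194 on 3R.

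In both replicate lists chromosome 4 had the highest density of the regions and every region was below the rest, but the sizes differed. Replicate 3 gave 64.4 peaks per Mb against 236 in the rest, a ratio of 0.273, and replicate 4 gave 94.1 against 238, a ratio of 0.395. Both replicates therefore lay on the same side, and replicate 4 held more of these peaks (1201 of its 29246) than replicate 3 (822 of its 28459). On chromosome 4 the ratio was 0.628 in replicate 3 and 0.899 in replicate 4, where the interval of 0.800 to 1.01 included equal density. With 2 replicates an exact paired sign-flip permutation test cannot give a two-sided p below 0.5, so differences between regions are stated as values in each replicate list, and no p is given.

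**Figure D1:**
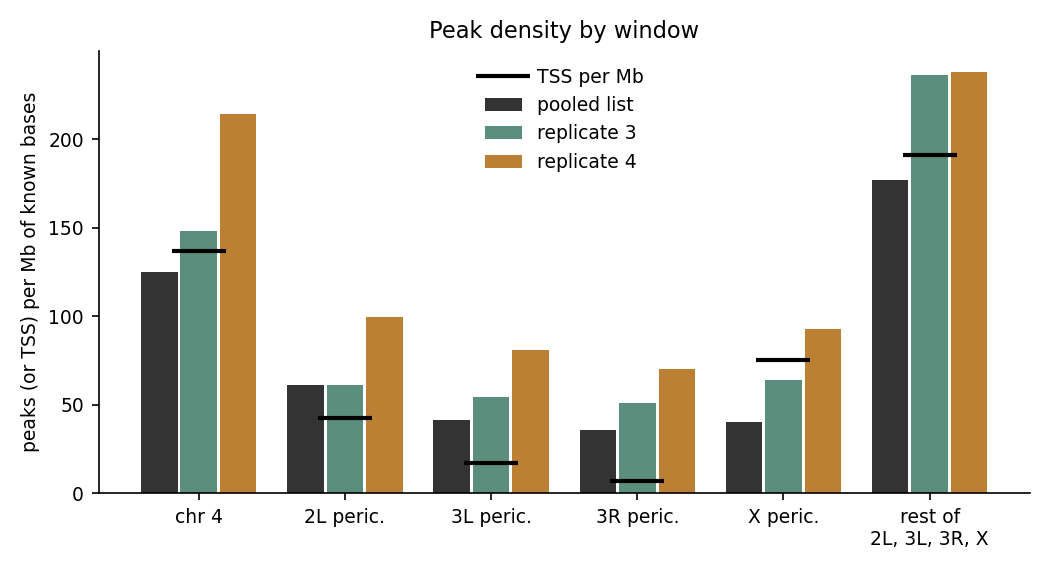
Bars show the number of peaks per Mb of known bases in each window for the pooled list and for the lists of replicates 3 and 4, and the black dashes show annotated TSSs per Mb. Chromosome 4 reaches 125 pooled peaks per Mb, the 4 pericentric windows 35.7 to 60.9, and the rest of the arms 177.

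The change was visible at the borders of the windows on 3 of the 4 arms. In the 1 Mb outside the border the pooled density was 155 per Mb on 2L, 146 on 3L and 229 on 3R. In the 1 Mb inside it was 70.0 on 2L, 70.0 on 3L and 48.1 on 3R. On X the order was the other way, with 19.2 per Mb outside and 40.4 inside. The sequence outside the X border was itself repetitive, with 44.4% of its 50-base stretches found once in the assembly in the 500 kb next to the border and 20.4% in the next 500 kb, against 83.9% in the first 500 kb inside. Over all 4 arms, 33 peaks of the IDR list lay in the outer strip and 1 in the inner strip. The IDR list is the authors' set thresholded on the irreproducible discovery rate, which scores how alike peaks rank in both replicates. It held the 2767 strongest peaks of the pooled list, so membership alone does not show that a peak ranked alike in both. Beyond the first 1 Mb inside, the bins of 500 kb ranged from 18 to 54 per Mb on 3L and from 10 to 43 on 3R.

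**Figure D2:**
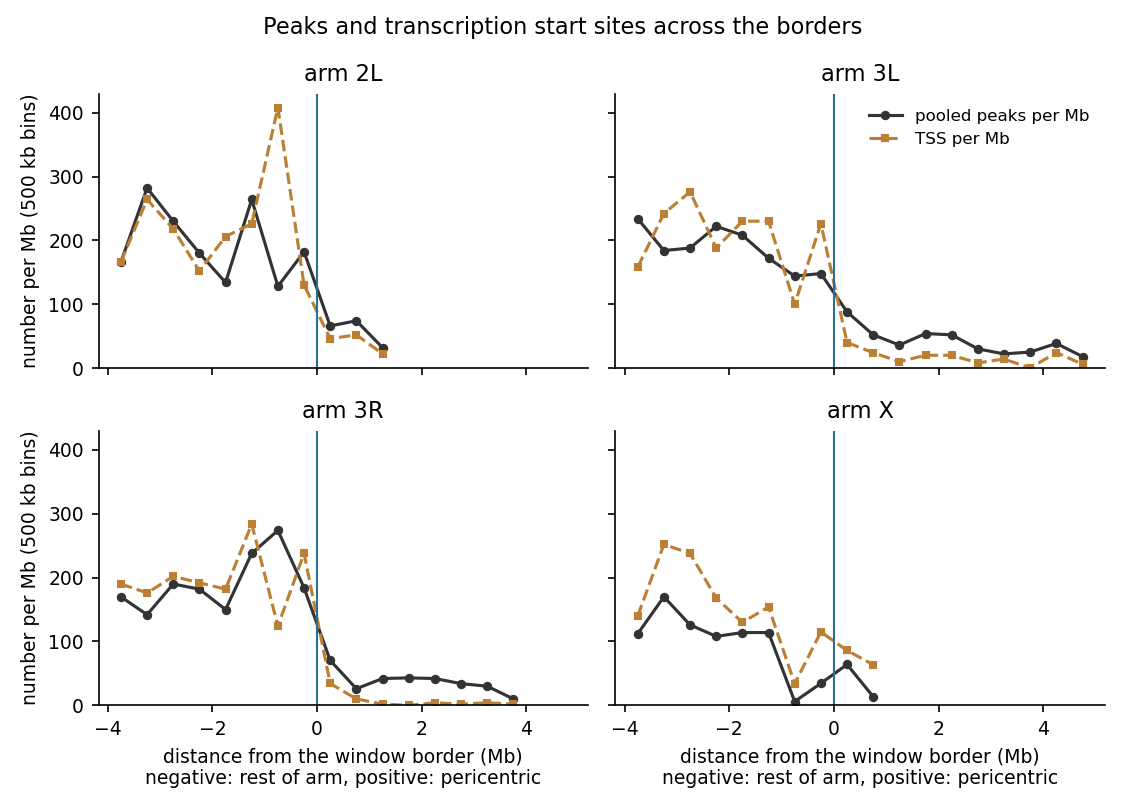
Each panel plots, for 1 arm, pooled peaks per Mb (circles) and TSSs per Mb (squares) in bins of 500 kb against distance from the window border in Mb, with the pericentric side positive. Both counts fall across the border on 2L, 3L and 3R, while on X the lowest bin, at 6 per Mb, lies within 1 Mb outside it.

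Much of this sequence is repeated, and most of the peaks stood in 50-base stretches found once in the assembly. Of the 50-base stretches of the regions, 50.1% occurred once in the assembly, 86.7% on chromosome 4 and 45.8% in the pericentric windows, against 94.7% in the rest. Within 100 bp of member summits the mean was 97.9%, and at 535 of the 640 members (83.6%) every stretch was unique. Only 4 members had under 50% unique stretches there. Per Mb of unique stretches the pooled density was 144 on chromosome 4 and 90.5 in the pericentric windows, against 187 in the rest, a ratio of 0.536 for the regions together (0.495 to 0.580). That ratio was 0.516 in replicate 3 and 0.747 in replicate 4. Chromosome 4 had a ratio of 0.770 in the pooled list and 0.982 in replicate 4 (0.874 to 1.10). The length of 50 bases was chosen without knowing the read length. The part that mapping plays in the lower density and in where summits stand was not tested further.

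Annotated start sites were sparser still in the pericentric windows, so the order turned when peaks of the pooled list were counted per TSS. There were 137 TSSs per Mb on chromosome 4, 21.0 in the pericentric windows and 191 in the rest. The pooled list held 0.907 peaks per TSS on chromosome 4, 1.98 in the pericentric windows and 0.925 in the rest. The ratio to the rest was 0.981 on chromosome 4 (0.842 to 1.14) and 2.14 in the pericentric windows (1.95 to 2.34). It reached 5.56 on 3R, where 29 TSSs stood in the whole window, and was 0.579 on X, where 71 did. For all regions it was 1.58 in replicate 3 and 2.28 in replicate 4. On chromosome 4 it was 0.873 in replicate 3 and 1.25 in replicate 4, so its direction there differed between the replicates. The order did not turn in the IDR list, where the ratio was 0.264 for all regions and 0.0999 in the pericentric windows. Among pooled peaks above the median signal it was 1.12 for all regions.

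Most of the pericentric peaks stood far from any start site. Of the members, 135 (21.1%, 95% Wilson interval 18.1 to 24.4) lay within 1 kb of a TSS, against 38.2% of the rest. The share was 38.0% on chromosome 4 and 15.2% in the pericentric windows, with 9.40% on 3R, 13.5% on 3L, 23.8% on 2L and 28.9% on X. The median distance to the nearest TSS was 1694 bp on chromosome 4, 17010 bp in the pericentric windows and 1761 bp in the rest. On chromosome 4 both measures were therefore near those of the rest. Seen from the start sites, 49.2% of the TSSs on chromosome 4 and 40.0% of those in the pericentric windows had a pooled summit within 1 kb, against 45.2% in the rest.

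Members near a coding TSS were mostly upstream of it on chromosome 4, 2L and 3L. Of those within 1 kb of a coding TSS, 82 lay upstream and 27 downstream, with 44 and 12 on chromosome 4 and 38 and 15 in the pericentric windows. In the rest 3518 lay upstream and 2245 downstream. Within the pericentric windows 12 lay upstream and 3 downstream on 2L, and 21 and 4 on 3L. The counts were 3 and 3 on 3R, and 2 and 5 on X.

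Long introns held many of the peaks of the 3R window. Introns held 77.9% of the summits there, against 33.8% in the 2L window, 44.0% in the 3L window, 44.7% in the X window and 44.9% in the rest. The share over all 4 windows was 53.0%. The gene with most summits was Myo81F, a myosin gene of 1966 kb on 3R, with 71 summits of which 70 were intronic and 68 over 1 kb from a TSS. Its strongest had a signal of 42.9, and 12 of the 71 were matched in both replicates. Pzl, which encodes a mechanosensitive channel related to Piezo and spans 709 kb, had 28 summits with a highest signal of 37.5, and 1 of them was matched in both. On 3L, lovit had 19 over 434 kb and Snap25, a synaptic membrane fusion gene, had 11 over 225 kb. These genes held 36.1 summits per Mb (Myo81F), 39.5 (Pzl), 43.8 (lovit) and 48.9 (Snap25), beside 41.5 for the pericentric windows as a whole. Coding exons held 4.43% of the pericentric summits and 21.1% of those on chromosome 4, against 13.1% in the rest.

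Annotated transposable elements made up 16.0% of the assembled sequence of the regions and 4.12% of that of the rest. Of the members 83 had the summit in an element (13.0%, 10.6 to 15.8), against 0.426% of the rest. On chromosome 4 elements made up 25.1% of the sequence and held 19.3% of the summits, and in the pericentric windows they made up 14.9% and held 10.8%. The small element INE-1 held 35 of these summits, 20 of them on chromosome 4, and covered 182 kb of the regions. Cr1a held 11 over 141 kb, and the element 1360 held 3 over 209 kb. Within 100 bp of the INE-1 summits 99.6% of 50-base stretches were unique on average, so those copies could be told apart at that length.

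Members had lower signals than the rest, more so in the pericentric windows than on chromosome 4. The median pooled signal, the authors' column whose scale is not stated and which serves here only to rank peaks within a list, was 28.3 on chromosome 4 and 26.6 in the pericentric windows, against 29.9 in the rest. The ratio of medians for all members was 0.907 in the pooled list, 0.921 in replicate 3 and 0.925 in replicate 4. Below the median of the whole list, 29.7, lay 56.6% of the chromosome 4 peaks (49.0 to 63.9) and 68.4% of the pericentric peaks (64.0 to 72.4). The share of the rest was 49.2%, which the interval of chromosome 4 included. The upper tail showed the difference more. Split by signal into 10 classes of equal size, the list held 0.422% members in the strongest class, 8 peaks on chromosome 4 and 1 pericentric, and 4.93% in the weakest.

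**Figure D3:**
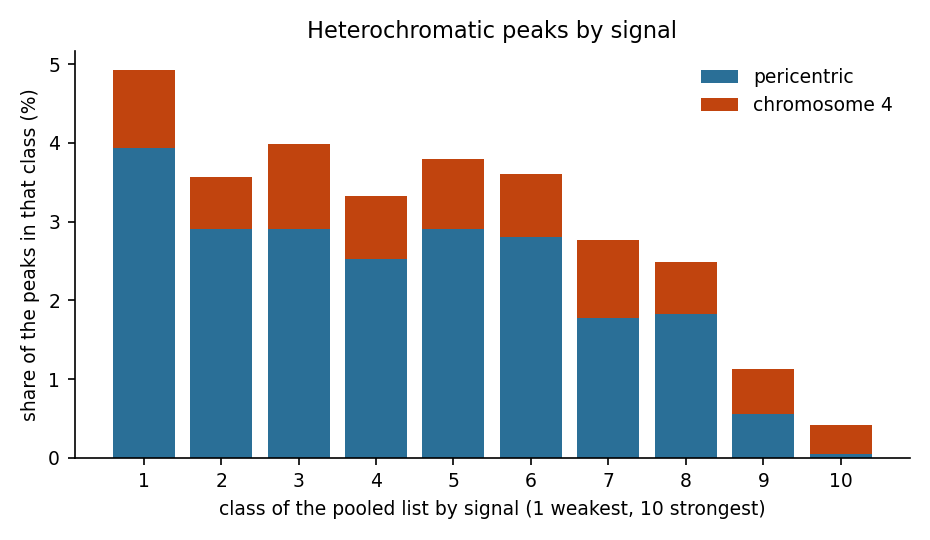
Stacked bars show, for each of 10 classes of equal size from the weakest to the strongest pooled signal, the percentage of its peaks that were pericentric or on chromosome 4. The pericentric share falls from 3.94% in the weakest class to 0.0469% in the strongest, while the chromosome 4 share stays between 0.375% and 1.08%.

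Of all pooled peaks, 13.0% were in the IDR list, and 13.5% of the rest were. Of the members, 14 were, or 2.19% (1.31 to 3.64). Chromosome 4 had 11 (6.63%, 3.74 to 11.5) and the pericentric windows 3 (0.633%, 0.215 to 1.84), 2 on 3L and 1 on 2L. No peak in the 3R window or the X window was in it. For 149 and 38 peaks, a count of 0 allows shares of up to 2.01% and 7.89% by the limit of 3 counts, and the upper Wilson bounds are 2.51% and 9.18%. The 2767 peaks of the IDR list were the 2767 strongest of the pooled list, so this share and the signal are 1 measurement and not a pair of independent ones. Ranked within each replicate's own list, the top 2767 held 11 members in replicate 3, 9 of them on chromosome 4, and 21 in replicate 4, 13 of them on chromosome 4. The gap was present both near start sites and away from them. Within 1 kb of a TSS 7.41% of members (4.07 to 13.1) and 22.4% of the rest were in the IDR list, and beyond 1 kb the shares were 0.792% (0.308 to 2.02) and 8.04%.

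The strongest member lay 161 bp upstream of PlexA, which encodes a plexin, a receptor for semaphorins in axon guidance. Its signal was 329.8 in the pooled list, 170.2 in replicate 3 and 155 in replicate 4. The next lay 102 bp upstream of RpS3A, a protein of the small ribosomal subunit, with 237 in the pooled list, 105 in replicate 3 and 128 in replicate 4. Their sequences are the first pair shown above, and both were high in each replicate. Sox102F, an HMG-box transcription factor, had a pair of overlapping peaks 188 bp and 390 bp upstream of a TSS inside the gene. The first had 196 in the pooled list, 101.03 in replicate 3 and 96.6 in replicate 4. The second had 133, 82.7 and 15.6 in the same order, so the replicates were far apart there.

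The remaining chromosome 4 promoters in the IDR list were weaker. A peak 2 bp from a TSS of CG11076 and 507 bp upstream of ATPsynbeta, the beta subunit of mitochondrial ATP synthase, had 109 in the pooled list, 52.4 in replicate 3 and 60.1 in replicate 4. One 307 bp upstream of pho, a DNA-binding protein of the Polycomb group, had 75.5, 36.6 and 44.1. One within 1 kb of ND-49, a subunit of respiratory complex I, and of Ephrin, the ligand of the Eph receptor, had 74.5 in the pooled list and 50 in replicate 4, and no summit of replicate 3 lay within 100 bp of it. It was the only one of the 14 not matched in both replicates.

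In the pericentric windows all 3 IDR peaks lay at promoters, and those of RpL15 and RpL5 belong to proteins of the large ribosomal subunit. The RpL15 peak, 108 bp upstream, had 109 in the pooled list, 58.2 in replicate 3 and 54.1 in replicate 4. The peak of l(3)80Fg, 129 bp upstream, had 82.0, 27.03 and 57.3. The peak of RpL5 lay in a 5′ UTR, 38 bp upstream of another TSS of the gene and 943 bp upstream of CG17490, and had 72.3, 40.1 and 34.1. The l(3)80Fg peak thus differed between the replicates more than the other 2.

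The 4 other IDR members were on chromosome 4 and over 1 kb from a TSS. One in the 3′ UTR of Cals, which encodes a calsyntenin, was 9610 bp from the nearest TSS and had 149.7 in the pooled list, 98.7 in replicate 3 and 55.8 in replicate 4. The 2 intergenic ones shown above lay 1256 bp and 3896 bp from a TSS and had pooled signals of 147 and 144. The first had 91.8 in replicate 3 and 50.4 in replicate 4, and the second 58.3 and 80.8, so the replicates ordered them differently. The last, inside a transposable element in an intron of ey, the Pax6 gene of eye development, had 75.5, 36.3 and 38.8. The fifth strongest member away from a TSS stood on X, 4211 bp from the nearest, with 67.5 in the pooled list, 34.9 in replicate 3 and 33.3 in replicate 4. It was below the lowest IDR signal of 71.3.

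Below that level stood CG33217 at 69.3, gw at 68.7, lgs at 68.2, Gyf at 65.4 and Asator at 59.0 in the pooled list. The protein of gw acts in microRNA silencing and that of lgs is a coactivator of Wnt signalling. The pericentric genes that followed were ND-AGGG at 64.5, MED21 at 60.5, RpL10 at 58.5, alpha-Cat at 55.2, mRpS5 at 54.7, CG40228 at 48.3 and Spf30 at 48.0. They include a complex I subunit (ND-AGGG), a Mediator subunit (MED21), ribosomal proteins of the cytosol (RpL10) and mitochondrion (mRpS5) and the adherens junction protein alpha-catenin. All 7 lay in the 3L window.

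Coding genes in these regions had a promoter peak in the pooled list somewhat more often than other genes, and had one in the IDR list less often. The first order held in replicate 4 and turned round in replicate 3. It was also absent when all annotated TSSs, coding or not, were counted in place of genes. Of those, 44.0% in the regions and 45.2% in the rest had a pooled summit within 1 kb. Over all arms 48.2% of coding genes had a pooled summit within 1 kb of a TSS, and 48.1% in the rest. Of the 172 coding genes in the regions 58.7% did (51.3 to 65.8), 53 of 80 on chromosome 4 (66.2%, 55.4 to 75.7) and 48 of 92 in the pericentric windows (52.2%, 42.1 to 62.1). In replicate 3 the share was 48.8% in the regions and 55.1% in the rest, and in replicate 4 it was 66.3% and 54.9%. Chromosome 4 had 56.2% in replicate 3 and 75% in replicate 4, and the pericentric windows 42.4% and 58.7%, so the pericentric genes were those below the rest in replicate 3. An IDR summit lay at the promoter of 15.3% of coding genes over all arms and 15.8% in the rest, against 12 of 172 in the regions (6.98%, 4.04 to 11.8), 8 of 80 on chromosome 4 (10.0%, 5.15 to 18.5) and 4 of 92 in the pericentric windows (4.35%, 1.70 to 10.7). Some of these genes share 1 peak. The median signal of the strongest promoter peak was 39.1 on chromosome 4 and 37.8 in the pericentric windows, against 43.0 in the rest. The upper quartile was 56.5 and 47.4 against 94.9.

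**Figure D4:**
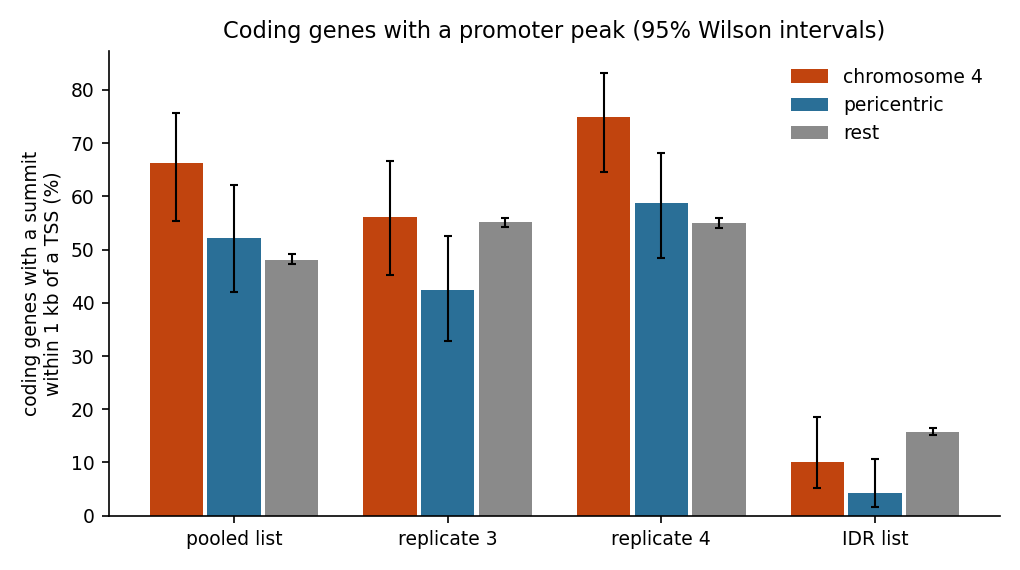
Bars show the percentage of coding genes with a summit within 1 kb of a TSS on chromosome 4, in the pericentric windows and in the rest, for the pooled list, each replicate list and the IDR list, with 95% Wilson intervals. The regions together are below the rest in replicate 3 (48.8% against 55.1%) and above it in replicate 4 (66.3% against 54.9%), and below it in the IDR list (6.98% against 15.8%).

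Genes of chromosome 4 were grouped by role into 3 lists of 13 to 17 and counted, with no test of the differences between lists. Of 14 general cellular genes, 10 (71.4%) had a pooled promoter peak, beside 66.2% of coding genes on chromosome 4 and 48.2% over all arms. The median signal of those 10 was 53.9, beside 39.1 for promoter peaks of chromosome 4 and 43.0 for those of the rest. RpS3A, ATPsynbeta and gw led this list with 237, 109 and 68.7, and Rad23, Tdg, eIF4G1 and Pur-alpha had none. Of 13 transcription and chromatin factors 7 (53.8%) had one, with a median of 44.8, led by Sox102F at 196, pho at 75.5 and lgs at 68.2. Mitf, a basic helix-loop-helix leucine zipper factor like Usf, had a signal of 37.7, and ci, the transcription factor of Hedgehog signalling, 37.0. The developmental regulators toy, pan, sv, zfh2, onecut and fd102C had no pooled promoter peak. Of 17 neuronal, signalling and muscle genes 8 (47.1%) had one, with a median of 34.7, led by PlexA at 329.8, Ephrin at 74.5 and PlexB at 45.0. Among those without one were Eph, mGluR, Syt7, bt and unc-13. In each of the 3 lists 2 genes had an IDR peak, which is 14.3%, 15.4% and 11.8% in the order given. An IDR peak stood at 10.0% of coding genes on chromosome 4 (8 of 80) and at 15.3% of all coding genes.

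Of 19 listed pericentric genes 4 started outside the windows or on another arm. Of the other 15, 10 (66.7%) had a pooled promoter peak, beside 52.2% of pericentric coding genes and 48.2% of all coding genes. An IDR peak stood at 2 of the 15, RpL15 and RpL5 (13.3%), beside 4.35% and 15.3%. The third strongest of the 15 was su(f), which acts in the formation of mRNA 3′ ends, at 47.1. The gene lt, a long studied gene of heterochromatin that acts in vesicle transport to lysosomes, had 38.4 in the pooled list, 15.4 in replicate 3 and 23.0 in replicate 4. Dbp80, an RNA helicase gene, had 45.6, and vtd, the cohesin subunit Rad21, 32.8. AGO3, of the piRNA pathway that silences transposons, had none in any list, nor did Myo81F, eIF4B, spok and Cht10 in the pooled list.

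Over all members the E-box was about as frequent at the summits as beside them. Searched on both strands within 100 bp of the summit, CACGTG stood at 14 of 640 members (2.19%, 1.31 to 3.64) and in 2.27% of equally long side windows, centred 500 bp away. In the rest it stood at 3.18% of summits and 2.59% of side windows. Chromosome 4 had 8 of 166 (4.82%, 2.46 to 9.22) beside 1.51% of side windows, and the pericentric windows 6 of 474 (1.27%, 0.581 to 2.73) beside 2.53%. Of these members, the strongest were lgs at 68.2 and a pair of intergenic chromosome 4 peaks at 62.6 and 61.9. At coding start sites, whether or not they had a peak, CACGTG was in 2.87% of windows of the regions and 2.95% of those of the rest. None of the 14 IDR members held it, too few peaks to set apart from the 3.18% of summits of the rest. Its share among IDR peaks of the rest is not given here.

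The palindrome TATCGATA, the core of the DRE element of fly promoters and of a sequence bound by the insulator protein BEAF-32, was searched in the same way and does not overlap CACGTG. It stood at 17 members (2.66%, 1.66 to 4.21) and in 2.19% of side windows, against 1.45% and 0.514% in the rest. On chromosome 4 it stood at 10 of 166 (6.02%) with 3.31% at the sides, and in the pericentric windows at 7 of 474 (1.48%) with 1.79%. At coding start sites it was in 6.09% of windows of the regions and 6.59% of the rest. It was at none of the 14 IDR members, too few peaks to set apart from the 1.45% of summits of the rest.

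Averaged over all members, GC content at the summit was near that of the rest, with less GC beside it. Within 1 kb of a TSS, summits had 35.9% GC in members and 41.2% in the rest, and beyond it 43.0% and 42.8%. The mean GC content within 50 bp of the summit was 41.5% ± 9.03 (SD over 640 members) and of the side windows 37.5% ± 7.39, a difference of 3.96 points. The difference was 4.32 on chromosome 4 and 3.83 in the pericentric windows, and in the rest summit and sides both had 42.2%. It was 4.00 for members and 1.22 for the rest in replicate 3, and 2.67 and 0.43 in replicate 4. Among peaks below the list's median signal the difference was alike, at 3.71 points in members and 3.34 in the rest. Summits there had 41.6% GC in members and 45.1% in the rest, and side windows 37.8% and 41.8%. Above the median the differences lay on opposite sides. Summits were richer in GC by 4.43 points in members, and the difference was -3.36 points in the rest. Summits there had 41.4% GC in members and 39.3% in the rest. These upper parts were not matched on signal. The IDR list held 14 of the 222 members and 2289 of the 8589 peaks of the rest there. The part this plays in the GC difference was not tested. The 14 IDR members had a mean of 34.3% ± 5.22 at the summit and 36.4% ± 8.81 beside it, with 7 of the 14 lower at the summit. IDR peaks of the rest had 33.6% and 44.1%. The summits of IDR peaks thus had a like GC content in both, while the sequence beside them had less GC in these regions, whose assembled sequence was 39.4% GC against 42.4% in the rest.

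Members recurred between the replicates less often than the rest. A summit of each replicate list lay within 100 bp of the pooled summit for 122 members (19.1%, 16.2 to 22.3), for 28.3% on chromosome 4 and 15.8% in the pericentric windows, and for 34.2% of the rest. No summit of either lay there for 16.2% of members and 11.6% of the rest. Of the 822 members of the replicate 3 list, 15.1% had a match in replicate 4, and of the 1201 in replicate 4, 10.3% had one in replicate 3. In the rest the shares were 25.5% and 25.3%. Across the matched peaks Spearman's rho between the signals of the replicates was 0.54 over 47 peaks on chromosome 4, 0.25 over 75 pericentric peaks and 0.77 over 5791 peaks of the rest. Among the pericentric windows rho ranged from 0.05 on 3R to 0.40 on 3L. Pooled signals reached 329.8 on chromosome 4, 109 in the pericentric windows and 1798 in the rest. The part that this difference in range plays in rho was not tested. These shares and correlations are descriptions over peaks that share the same 2 libraries and the same control. The share matched among peaks above the median signal was 45.5% for members and 61.0% for the rest, and below it 5.02% and 6.61%.

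**Figure D5:**
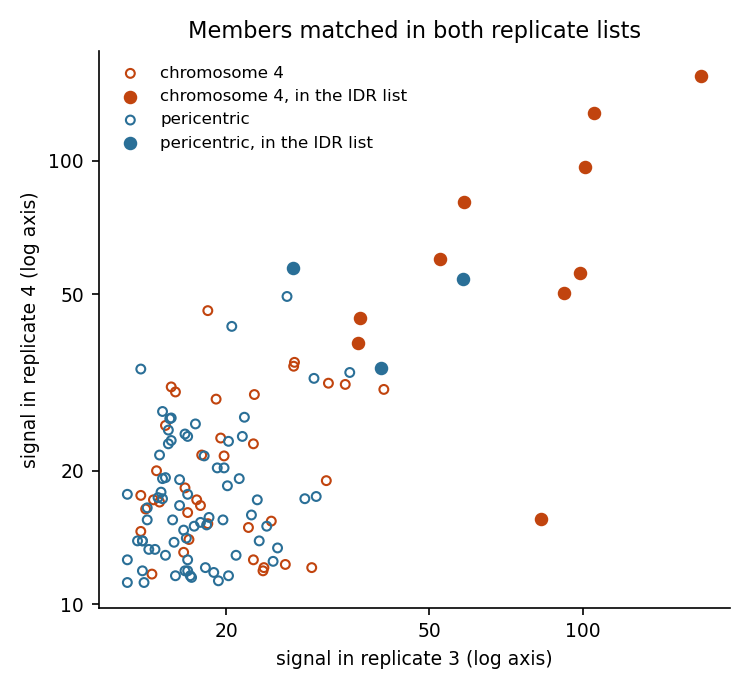
Each point is 1 of the 122 members matched in both replicate lists, with its signal in replicate 3 on the horizontal axis and in replicate 4 on the vertical axis, both logarithmic. The filled points are in the IDR list, led by the PlexA peak at 170.2 and 155, and the second Sox102F peak lies apart at 82.7 and 15.6.

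The lists on the older build dm3, where heterochromatic sequence is held in separate Het sequences, were counted by sequence name. Chromosome 4 held 137 pooled peaks with 11 in the IDR list (8.03%), and the Het sequences of 2L, 3L, 3R and X held 186 with 2 (1.08%). On the named arms 2L, 3L, 3R and X the share was 14.2% of 15249. The median signal was 29.5 on chromosome 4, 27.5 on the Het sequences and 31.2 on those arms, so the order was that found on dm6. The dm3 names do not cover the same sequence as the windows on dm6.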

How the data were processed

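Peak lists for 2 replicates of 1 group were analysed. Per the deposited sample notes, the relaxed lists hold peaks and background as input of the IDR step, were called against the same control alignment for both replicates, and include a list on the pooled reads. The signal of each peak is the authors' deposited value, and its scale is not stated. For the aligner, the caller, their versions, the IDR threshold and the read length, the entry is: not given in the sources used here. Read depth is unknown. How reads from repeats were treated is not stated, and it could change counts in these regions.

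Summits were assigned to regions on dm6, and genes, TSSs and transposable elements came from Ensembl 115 on the same Release 6 sequence. Of 30593 start codons 99.8% read ATG, and 0 peaks ended beyond an arm. Density used bases other than N. TSS distance was 1000 bp, replicate matching 100 bp, motif windows 100 bp and GC windows 50 bp to each side of the summit. A gene was placed by its outermost start. Unique 50-base stretches were found on both strands. Shares have 95% Wilson intervals and density ratios 95% log-normal intervals, for counting error only. With 2 samples an exact sign-flip permutation test gives no p-value below 0.5, so none is reported. The calculations were tested on simulated data. Python 3.11.15, numpy 2.4.6, pandas 2.3.3 and matplotlib 3.10.9 were used.

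Members, gene lists and tests were chosen with earlier results of these data known. Named genes are the 12 on chromosome 4 and the 12 in pericentric windows with the highest promoter signal, the 3 strongest of each list, listed genes without a peak and the 5 strongest members away from a TSS. Mitf, ci, lt, Dbp80, vtd, the genes with most summits inside and the transposable element families were chosen after their values were seen. Alternatives were each replicate alone, each part of the regions, other borders, distances, windows, lengths and signal ranges, and dm3.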

Additional observations from a re-analysis of the deposited data

Results flagged for a closer look

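The dm3 lists also held peaks on unplaced sequence, which no comparison above uses. The pooled list had 24 there, the list of replicate 3 had 27, the list of replicate 4 had 55 and the IDR list had 0. The relaxed lists hold background as well as peaks, so these entries alone do not show bound sites. Their median signal in the pooled list was 29.2 and the highest 51.6. The control was not analysed here, so its level there cannot be set beside them.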

How the results depend on the processing

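Of 80 alternative values, 33 moved by less than the spread of the replicates or the counting interval, 42 moved by more in the same direction and 5 changed direction. The 5 were the peaks per TSS ratio on chromosome 4 alone (0.981), in the X window against its own arm (0.653) and in the IDR list (0.264), the share of coding genes with a peak in replicate 3 alone (48.8% against 55.1% in the rest), and the share of CACGTG on chromosome 4 alone (4.82% against 3.18%). The cause was not tested. The density ratio was below 1 under all 16 of its alternatives.

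With each replicate list alone the density ratio ran from 0.273 to 0.395, the peaks per TSS ratio from 1.58 to 2.28, the median signal ratio from 0.921 to 0.925, the share within 1 kb of a TSS from 16.0% to 16.1%, the share of coding genes with a peak from 48.8% to 66.3%, the share with CACGTG from 1.82% to 2.83%, and the GC difference from 2.67 to 4.00 points. On chromosome 4 alone the density ratio was 0.705, the signal ratio 0.948, the IDR share 6.63%, the share near a TSS 38.0% and the share matched 28.3%. In the pericentric windows alone the peaks per TSS ratio was 2.14, the signal ratio 0.889, the IDR share 0.633%, the share near a TSS 15.2%, the share with CACGTG 1.27% and the share matched 15.8%. For peaks above the median signal the density ratio was 0.194, the peaks per TSS ratio 1.12, the signal ratio 0.838, the share near a TSS 35.6%, the share of coding genes 41.9%, the share with CACGTG 3.15% and the share matched 45.5%. In the IDR list the density ratio was 0.0458. Against their own arms the 3R window had a density ratio of 0.194 and a peaks per TSS ratio of 5.46, and the 3L window one of 2.46. Borders 500 kb nearer the centromere gave 20.4% near a TSS. The share near a TSS was 16.4% at 500 bp and 29.7% at 2000 bp, the share matched 11.9% at 50 bp and 32.3% at 250 bp, and the share with CACGTG 0.781% within 50 bp and 4.69% within 200 bp. The dm3 lists gave a signal ratio of 0.899 and an IDR share of 4.02%. Chosen after seeing the data, density per Mb of unique 50-base stretches gave 0.536 in the pooled list, 0.516 in replicate 3 and 0.747 in replicate 4, and peaks below the median signal gave 13.4% near a TSS.

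Limits were the 2 replicates, over which an exact permutation test cannot pass a threshold, the unknown read depth and signal scale, the 14 members in the IDR list, and the assembly, which leaves out most satellite sequence. The matching of borders to the chromatin state of these embryos was not tested, since no chromatin mark was analysed here.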
